A study of Mus musculus with 16 samples.

Results

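The genes described here are the nuclear genes for subunits of the 5 complexes of the mitochondrial respiratory chain, the enzymes that carry out oxidative phosphorylation. They were chosen by symbol among protein-coding genes, not by any measured value: the Nduf genes of complex I, Sdha to Sdhd of complex II, the Uqcr genes and Cyc1 of complex III, 10 Cox genes of complex IV and the Atp5 genes of the ATP synthase. The rule found 77 genes among the 25006 in the deposited table, of which 37 belong to complex I, 4 to complex II, 9 to complex III, 10 to complex IV and 17 to the ATP synthase. Usmg5, a small ATP synthase subunit that RefSeq names Atp5md, was counted with the last group. All 77 had counts in each of the 16 libraries and all 77 passed the filter on low counts. They lie on 19 chromosomes, with 3 on the X chromosome.

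Poly(A) RNA was measured in liver of C57BL/6 mice, an inbred strain. The 4 groups of 4 libraries were chow control (a chow slurry by a single gavage, control drinking water), fast food control (a fast food slurry, control water), chow antibiotic (a chow slurry, drinking water with antibiotics) and fast food antibiotic (a fast food slurry, drinking water with antibiotics). All livers were taken 4 h after the gavage. Which antibiotics were used, at what dose and for how long, and the sex and age of the mice, is not stated in the labels. The labels number the replicates but do not say that each is a separate mouse, and the p-values then measure only the spread between these samples, which may be technical.

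Complexes I and II pass electrons from NADH and succinate to ubiquinone, complex III passes them on to cytochrome c, and complex IV hands them to oxygen. Complexes I, III and IV pump protons, and the ATP synthase uses the proton gradient to make ATP. Most subunits are encoded in the nucleus and imported, while a few core subunits of each complex except complex II are encoded by mitochondrial DNA. The liver draws on this chain to oxidise fatty acids and to supply ATP for gluconeogenesis and urea synthesis. The 13 mitochondrially encoded protein genes had a count of 0 in every library, so the nuclear genes could not be set beside their partners.

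Total counts ran from 8954378 to 18954655 per library, and the 77 genes took 0.727% to 1.23% of them. Reads resembling ribosomal RNA gather in 4 features of the table (Mir6240, Gm20594, Mir6236 and Lars2), whose share of the counts, the rRNA-like share, was under 1% in 9 libraries and over 1% in 7. The 7 were fast food antibiotic replicates 1, 2 and 4, chow antibiotic replicates 2 and 4 and chow control replicates 1 and 2, and they were also the 7 shallowest, with at most 15094803 counts. None of the fast food control libraries was among them. The libraries with the most acute phase transcripts were fast food antibiotic replicate 2, chow antibiotic replicate 4 and chow control replicate 2. All 6 hepatocyte markers were present in every group, with summed levels of 86550 to 212400 CPM (counts scaled to a common library size), while 6 skeletal muscle markers summed to at most 0.203 CPM. The scaling uses TMM factors, which correct for differences in composition between libraries.

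The catalytic head of the ATP synthase led the list. Per kilobase of annotated exon, Atp5a1, its alpha subunit, stood at 365.6 ± 49.6 CPM per kb and Atp5b, its beta subunit, at 301.7 ± 38.9 (SD, n = 16 libraries over all groups). Both genes were read in the same libraries, so these SDs do not measure the difference between the 2, which was not tested. With the length of the longest protein-coding transcript in place of all exons their order turned, with Atp5b at 667 and Atp5a1 at 429 CPM per kb. The genes of complex IV had the highest median of the 5 complexes, 131.5 CPM per kb, and those of complex I the lowest, 40.0, as they also were with transcript length (190.4 and 61.3). Within complex I the level per length ran from 0.717 ± 0.316 CPM per kb for Ndufa4l2, an isoform known as a hypoxia-induced gene, to 174.1 ± 19.7 for Ndufb9, an accessory subunit of the membrane arm. Ndufa4, at 158.7 ± 21.8 CPM per kb, is named for complex I but is found with complex IV, and by the longest transcript it stood above Ndufb9 (359.2 against 254.9 CPM per kb). In complex II, Sdhd, a membrane anchor, stood highest at 186.3 ± 28.3 CPM per kb and Sdhc, the other anchor, lowest at 45.3.

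**Figure D1:**
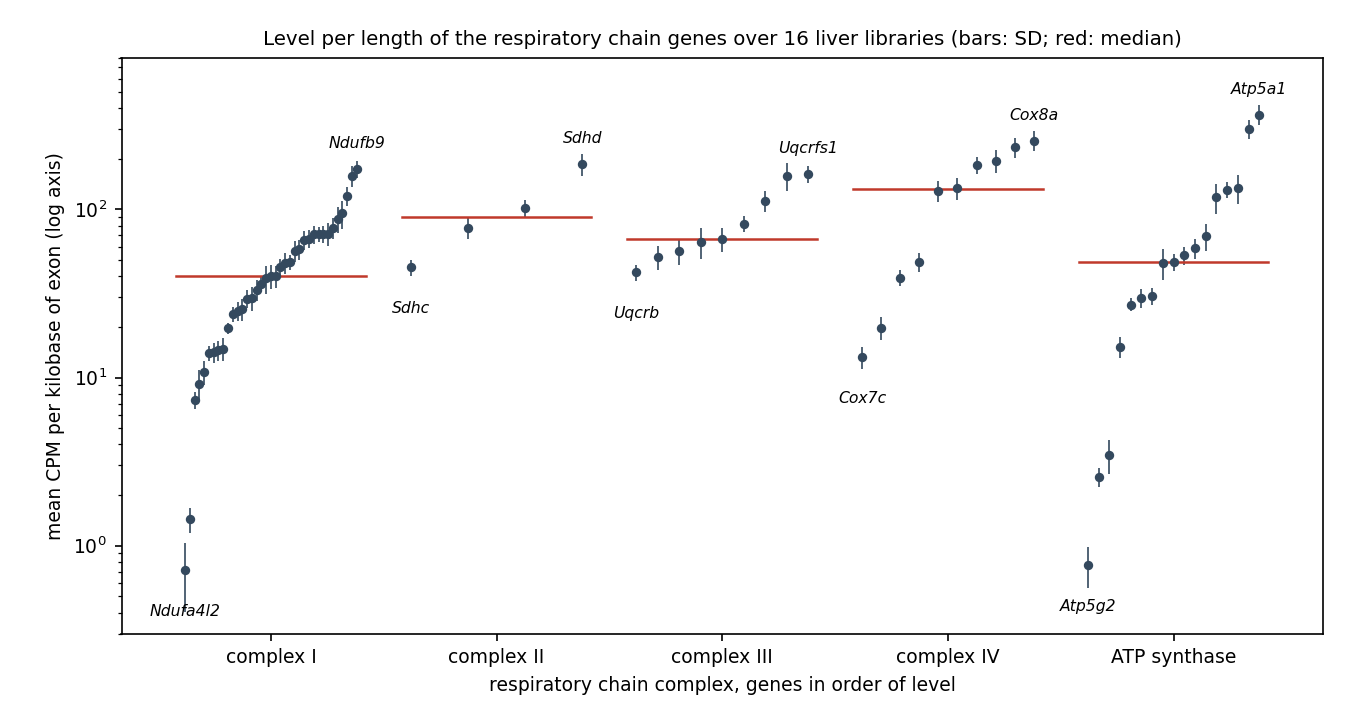
Mean level per kilobase of exon (CPM per kb, log axis) of each of the 77 genes over 16 libraries, in order of level within each complex, with bars for the SD and a red line for the median of the complex. Atp5a1 stands highest at 365.6 CPM per kb, and Ndufa4l2 (0.717) and Atp5g2 (0.770) stand lowest.

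In complex III the iron-sulfur protein Uqcrfs1 was highest, at 162.4 ± 19.7 CPM per kb, and Uqcr10 was next at 159.0 ± 30.2. The difference between these genes was not tested. By the longest transcript Uqcrh (253.5 CPM per kb) and Uqcr10 (213.9) stood above Uqcrfs1 (162.4). Uqcrb was lowest, at 42.3 ± 4.70. In complex IV, Cox8a, a small subunit, stood highest at 256.8 ± 35.2 CPM per kb and Cox7c lowest at 13.2 ± 1.95. By the longest transcript Cox4i1 was highest there (373.8 CPM per kb) and Cox8a next (289.0). The c subunit of the ATP synthase, which forms the rotating ring, is encoded by 3 genes whose mature proteins are the same. Of these, Atp5g3 gave nearly all the counts: 117.8 ± 23.6 CPM per kb, against 3.47 ± 0.808 for Atp5g1 and 0.770 ± 0.208 for Atp5g2. Reads of 50 bases cannot always place these genes, because the handling of reads with several matches is not stated. Of the 50-base windows of the longest transcript, 87.4% also occurred in other genes for Atp5g2, 11.6% for Atp5g1 and 0.0% for Atp5g3. Over the whole list, 33 genes had no such window and 25 had over 10%, with Atp5l at 84.8%, Atp5o at 50.3% and Atp5h at 47.9%. Genes ranked above were also among the 25: Uqcrb (43.4%), Cox7c (27.9%), Ndufb9 (23.4%) and Cox4i1 (14.7%). The levels of all 25, and ranks that rest on them, are uncertain.

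The 77 genes moved together from library to library, whatever the complex. Each library was scored by the median, over the genes, of the log2 deviation of the gene from its own mean over the 16 libraries. In chow control the scores were -0.27, -0.16, 0.05 and 0.04 for replicates 1 to 4, and in fast food control they were 0.23, 0.17, 0.14 and -0.06. Chow antibiotic gave -0.11, 0.18, 0.00 and 0.01, and fast food antibiotic 0.16, -0.32, -0.04 and 0.03. The lowest score was in fast food antibiotic replicate 2 and the highest in fast food control replicate 1, and all 4 groups overlapped. The 2 chow control libraries with the low scores were those with an rRNA-like share over 1%, whose part in these scores was not tested. In fast food antibiotic replicate 2 only 5 of the 77 genes lay above their own mean, and in fast food control replicate 1 75 did.

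**Figure D2:**
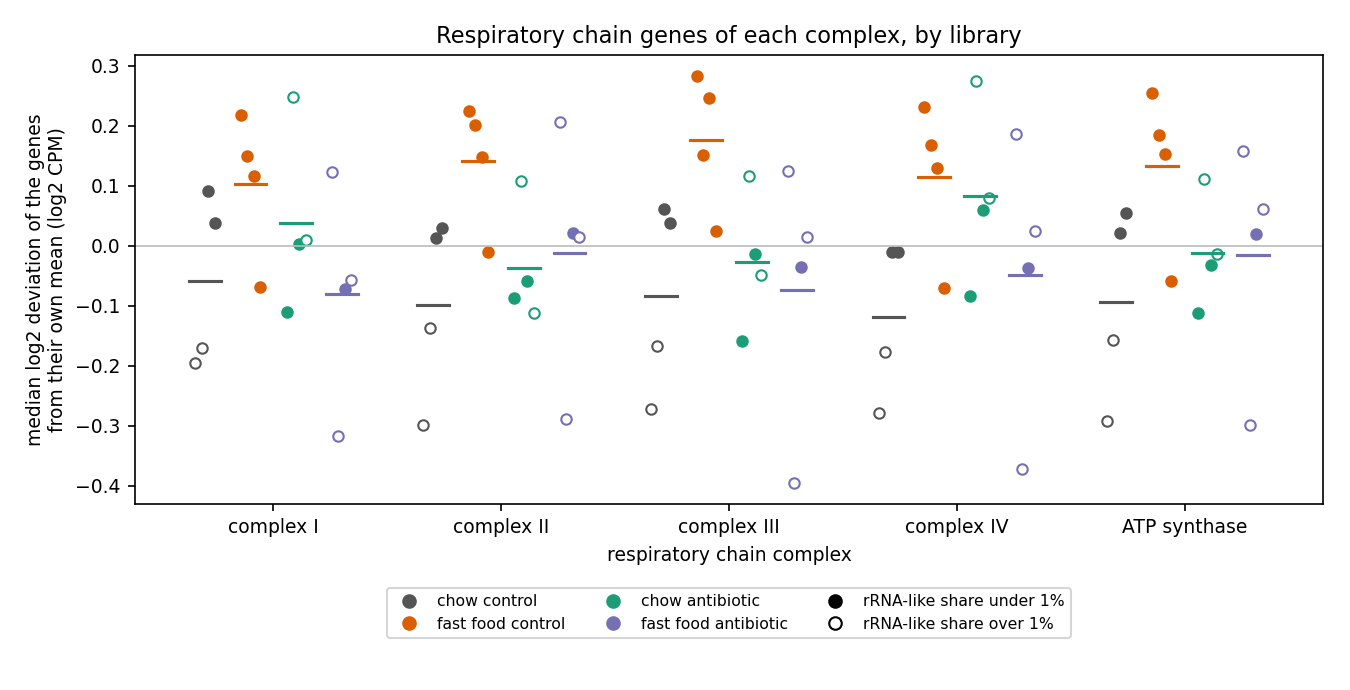
Median log2 deviation of the genes of each complex from their own mean (log2 CPM), for each of the 16 libraries, with a line for the mean of the 4 libraries of a group. Open points have an rRNA-like share over 1%. The libraries keep a similar order in all 5 complexes, with fast food antibiotic replicate 2 lowest in complexes I, III and IV and in the ATP synthase.

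The median Pearson correlation between pairs of these genes over the 16 libraries was 0.635, and 2776 of 2926 pairs were positive. It was 0.616 for genes of the same complex and 0.643 for genes of different complexes. Within groups, with each library taken as its deviation from the group mean, the median was 0.703. These correlations are a description: the libraries share their depth, scaling and RNA quality. They were not computed for other genes, so whether they are higher in this list than elsewhere is not known. Against the median of the other 76 genes, Ndufb8 of complex I (r = 0.977), Uqcrc1, a core protein of complex III (0.953), and Atp5f1, the stalk b subunit (0.947), were the most alike. Atp5g2 (-0.21), Atp5l (-0.19) and Ndufb4 (0.199) were the least alike, and all of them had at least 37.0% of windows in common with other genes. Atp5f1, among the most alike, had 38.7%, and Ndufa4l2, the next least alike (0.319), had 0.0%. Mean levels were 1.29 CPM for Atp5g2, 16.6 for Atp5l, 2.74 for Ndufb4 and 0.785 for Ndufa4l2. The part of shared windows and of low level was not tested.

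**Figure D3:**
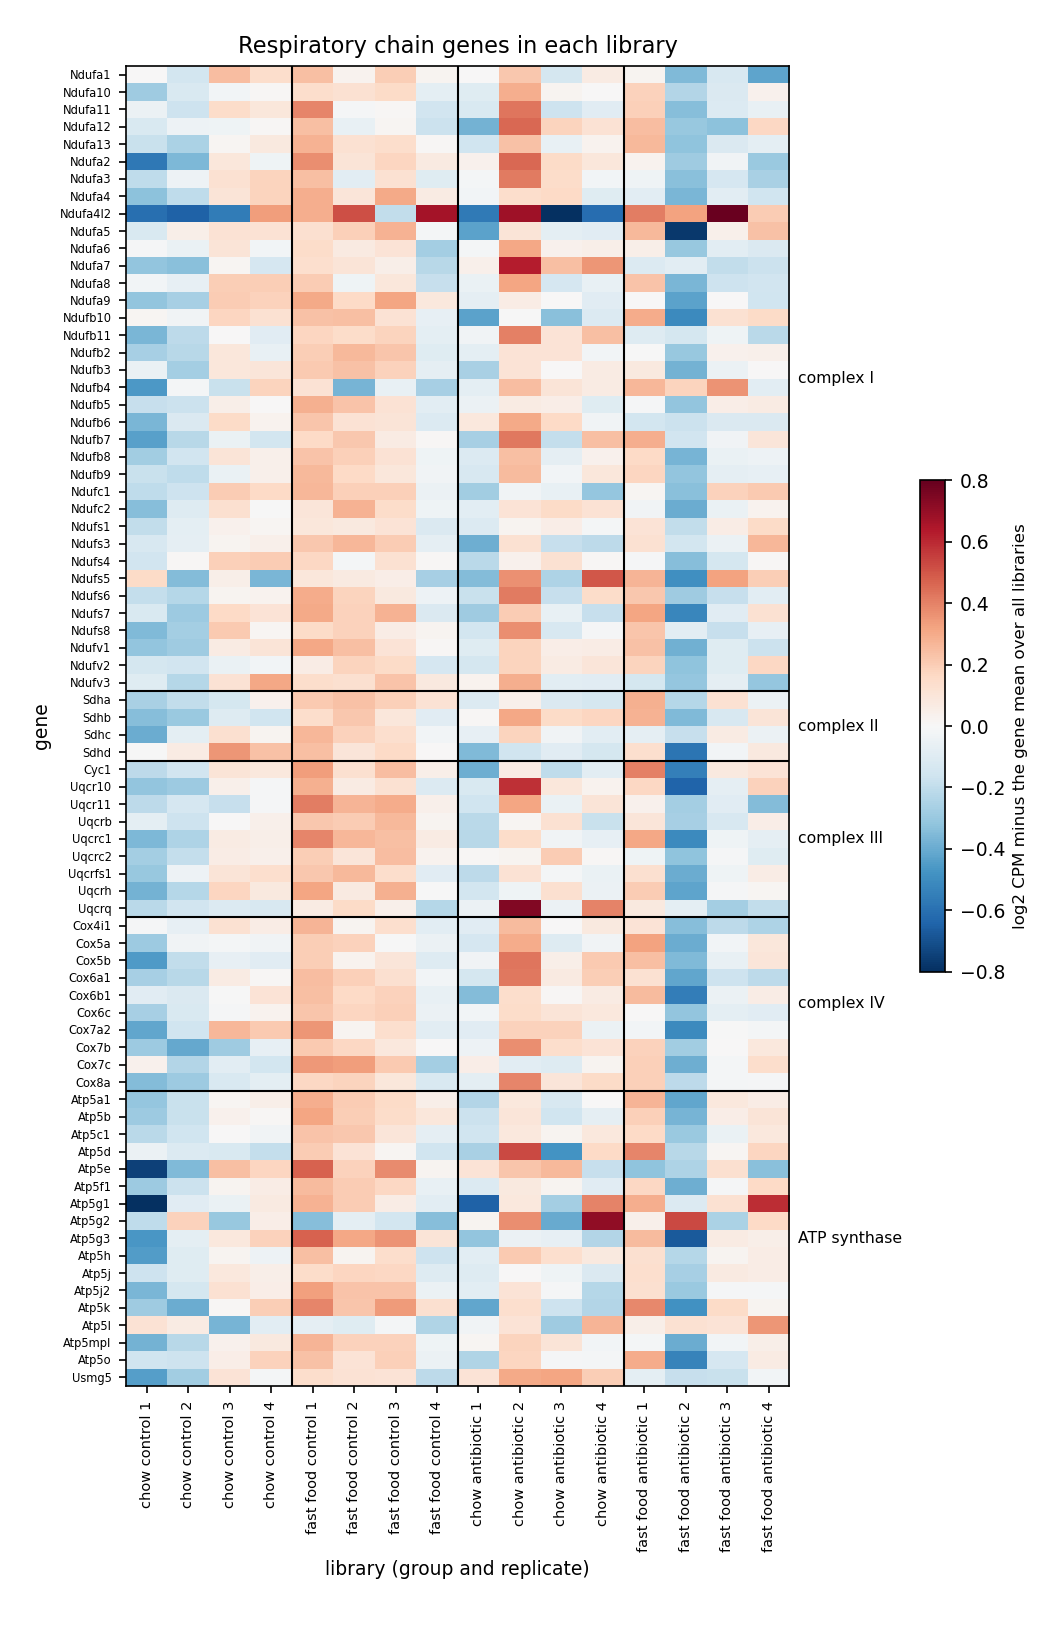
Log2 CPM of 76 of the genes (rows, by complex) in the 16 libraries (columns, by group), as the difference from the mean of the gene over all libraries. Colours end at the limits of the bar. Columns rather than complexes carry most of the pattern, with chow control replicate 1 and fast food antibiotic replicate 2 mostly blue and fast food control replicates 1 to 3 mostly red.

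The promoters of the 77 genes were read for motifs of factors known to bind respiratory chain genes. RefSeq promoter windows on GRCm38.p6, from 250 bases before to 50 after the start, were matched for 63 of the 77 genes (68 windows). Among the 14 genes with no entry were Uqcrq, Ndufs1, Atp5mpl, Uqcrb, Atp5a1, Cox6c, Ndufa2, Cox4i1, Ndufa4l2, Cyc1, Uqcrc2, Sdhc and Ndufb9. Both strands were searched. The NRF1 motif (GCGCA, any base, GCGC), bound by nuclear respiratory factor 1, was in 26.5% of the 68 windows and in 4.6% of all 32851 promoter windows. Its palindromic form, with T as that base, which the first motif includes, was in 7.4% and 0.97%. CCGGAAG, an ETS motif of the kind bound by GABPA (nuclear respiratory factor 2), was in 25% and 8.86%, and GCCATNTT, the motif of YY1, in 25% and 6.05%. GGGCGG, the SP1 motif, was in 38.2% and 35.66%, and TATAAA in 10.3% and 13.62%. The windows of these genes also had more G and C, with a median of 58.5% against 52.7% for all promoters. A match is a description of the letters and not a binding site.

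The 3 stretches below show what the NRF1 palindrome, in capitals, looks like near a start, each 150 bases long and ending 30 bases after the start; in Atp5k the second run of capitals is an ETS motif. Ndufa11 lies at chr17:56717642-56717791 on the plus strand, Atp5k at chr5:108434370-108434519 on the minus strand and Atp5g2 at chr15:102671018-102671167 on the minus strand.
Ndufa11: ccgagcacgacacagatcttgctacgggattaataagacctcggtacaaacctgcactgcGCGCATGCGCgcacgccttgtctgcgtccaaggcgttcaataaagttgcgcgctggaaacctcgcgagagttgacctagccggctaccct
Atp5k: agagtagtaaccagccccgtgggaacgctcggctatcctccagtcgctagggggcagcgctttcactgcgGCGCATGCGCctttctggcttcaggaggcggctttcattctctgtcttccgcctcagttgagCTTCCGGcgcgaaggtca
Atp5g2: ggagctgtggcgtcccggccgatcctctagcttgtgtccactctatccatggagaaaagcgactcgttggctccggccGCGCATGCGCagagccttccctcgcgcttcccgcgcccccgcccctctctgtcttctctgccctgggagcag
The palindrome began at base -60 from the start in Ndufa11, -50 in Atp5k and -42 in Atp5g2, the last being the gene whose counts followed the others least. These starts are those of RefSeq. By GENCODE the Atp5g2 gene spans chr15:102662864-102672352, so its palindrome lies within the gene and not upstream of it. The Atp5k gene begins at chr5:108434448, within the palindrome, and Ndufa11 at chr17:56717767, after it.

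The next 5 stretches belong to genes that differed between groups below, with the ETS motif in capitals in Sdhb, Uqcr11, Cox8a and Usmg5 and the YY1 motif in capitals in Ndufa7. They were picked for holding an NRF1, ETS or YY1 motif, so the presence of a motif in each is no result. Of the 9 genes past the threshold below, 7 had a promoter entry and 5 had such a stretch. Ndufb11 and Cox7b had none in the stretch, though their full windows held a YY1 motif. They lie at chr4:140961151-140961300 on the plus strand (Sdhb), chr10:80406792-80406941 on the minus strand (Uqcr11), chr19:7217587-7217736 on the minus strand (Cox8a), chr19:47090618-47090767 on the minus strand (Usmg5) and chr17:33824525-33824674 on the plus strand (Ndufa7).
Sdhb: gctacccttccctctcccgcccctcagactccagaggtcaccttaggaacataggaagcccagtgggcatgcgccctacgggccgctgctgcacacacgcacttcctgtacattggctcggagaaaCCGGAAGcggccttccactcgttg
Uqcr11: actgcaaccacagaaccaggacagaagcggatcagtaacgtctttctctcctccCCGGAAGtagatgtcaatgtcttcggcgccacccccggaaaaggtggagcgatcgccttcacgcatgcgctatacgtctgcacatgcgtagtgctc
Cox8a: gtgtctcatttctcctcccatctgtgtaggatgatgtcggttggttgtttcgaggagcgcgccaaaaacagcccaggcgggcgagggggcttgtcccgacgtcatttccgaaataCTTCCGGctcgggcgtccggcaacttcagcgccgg
Usmg5: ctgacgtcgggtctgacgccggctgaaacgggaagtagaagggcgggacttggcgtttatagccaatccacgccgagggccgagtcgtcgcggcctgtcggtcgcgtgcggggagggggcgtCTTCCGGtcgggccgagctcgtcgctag
Ndufa7: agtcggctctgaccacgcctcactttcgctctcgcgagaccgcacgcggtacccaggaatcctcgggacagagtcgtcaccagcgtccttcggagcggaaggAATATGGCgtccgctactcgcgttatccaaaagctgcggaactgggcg
The ETS letters CCGGAAG read forward in Sdhb and Uqcr11 and in reverse, as CTTCCGG, in Cox8a and Usmg5. They began at base 7 in Sdhb, -66 in Uqcr11, -5 in Cox8a and 3 in Usmg5, and the YY1 letters at -18 in Ndufa7. The Ndufa7 stretch is from window 2 of that gene, which has a later start than window 1, and window 1 held no YY1 motif. By the GENCODE start of Ndufa7, chr17:33824572, the YY1 letters lie within the gene and not upstream of it.

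With control water, a fast food meal left no respiratory chain gene past the threshold, though most had a higher mean. By edgeR's quasi-likelihood test with Benjamini-Hochberg adjustment over 13180 genes (threshold 0.05), 0 of the 77 genes were called, where 0.577% of all genes were (0.243% higher, 0.334% lower). DESeq2 called 0 as well, and 18 of the 77 had an unadjusted p under 0.05, against 11.5% of all genes. The log2 fold change was positive for 72 of the 77, against 46.1% of all genes, with a median of 0.21 where all genes had -0.02. The medians by complex were 0.19 (I), 0.26 (II), 0.23 (III), 0.23 (IV) and 0.23 (ATP synthase). Groups did not overlap, with fast food higher, for 7 genes (5.17% of all genes), namely Uqcr11, Cox7b, Sdha, Sdhb, Uqcrc1, Atp5b and Ndufb7, and with fast food lower for 0 (5.15% of all genes).

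Uqcr11, a small subunit of complex III, had the lowest p. It stood at 36.5, 38.5, 37.1 and 41.9 CPM in chow control and at 56.0, 51.0, 51.8 and 43.4 CPM in fast food control, and 10.9% of its 50-base windows occur in 1 other gene. All 4 fast food libraries were above all 4 chow libraries, replicate 4 by the least, and the log2 fold change was 0.39 ± 0.12 (SE, adjusted p = 0.163). Sdha, the flavoprotein of complex II, stood at 349.3, 364.4, 377.9 and 428.0 CPM with chow and at 482.4, 490.6, 476.0 and 451.4 CPM with fast food. It differed by 0.32 ± 0.11 (adjusted p = 0.245), with no overlap. The core subunits Atp5a1 (0.27), Atp5b (0.29), Uqcrc1 (0.36), Ndufv1 (0.27) and Ndufs1 (0.10) had positive values as well, with adjusted p from 0.363 to 0.782. Within the libraries with an rRNA-like share under 1%, 2 chow and 4 fast food, the median was 0.09 and 60 of 77 were positive. None of the 77 passed there either, by edgeR, where 2042 of all genes had an unadjusted p under 0.05.

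In chow-fed mice, antibiotic water went with higher levels of 8 respiratory chain genes, from each of the 5 complexes. They included Ndufa7 and Ndufb11 of complex I, Sdhb of complex II, Uqcrq of complex III, Cox7b and Cox8a of complex IV, and Usmg5 of the ATP synthase, and none was called lower. The 8 make up a share close to that of all genes called higher, 10.6%. Of all genes 13.2% were called lower and 23.8% in either direction, and against the latter the 8 are a smaller share. At an unadjusted p under 0.05 there were 11 of the 77, against 36.7% of all genes. Of the 77 fold changes 60 were positive (49.5% of all genes), with a median of 0.10 (all genes -0.01). Groups did not overlap for 8 genes higher (11.2% of all genes) and for 1 lower (13.6% of all genes). The latter was Sdhd, at -0.35 ± 0.14 (adjusted p = 0.0731).

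Ndufa7, an accessory subunit of complex I, lies at chr17:33824572-33838317 on the plus strand, and its exons overlap no other annotated gene. Its level was 56.2, 55.6, 70.7 and 63.8 CPM in chow control and 72.2, 108.2, 83.0 and 89.5 CPM in chow antibiotic. Every antibiotic library was above every control library, and the rise was 1.43-fold (log2 0.52 ± 0.12, SE, adjusted p = 0.00642). Ndufb11, an accessory subunit of the membrane arm encoded on the X chromosome, went from 62.9 ± 6.79 to 80.2 ± 10.2 CPM (SD, n = 4; log2 0.35, adjusted p = 0.0283 by edgeR), and its groups overlapped. Of its exon bases 12.9% overlap Rbm10 on the opposite strand, and 17.5% of its 50-base windows occur in other genes.

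Sdhb, the iron-sulfur subunit of complex II, stood at 136.4, 140.6, 160.9 and 155.0 CPM in chow control and at 173.7, 214.3, 191.9 and 194.7 CPM in chow antibiotic (log2 0.39 ± 0.13, adjusted p = 0.0353). Its partner Sdha differed by 0.06 (adjusted p = 0.751). Cox7b and Cox8a, small nuclear subunits of complex IV, rose by 0.41 ± 0.12 and 0.36 ± 0.12 on the log2 scale (adjusted p = 0.0187 and 0.0383). Uqcrq rose by 0.45 ± 0.15 (adjusted p = 0.0397) and Usmg5 by 0.37 ± 0.12 (adjusted p = 0.0307). Chow antibiotic replicate 2 was highest for 7 of these 8 genes. Uqcrq stood at 191.6 CPM there, 151.1 in replicate 4 and 111.2 in each of the other 2. The large core subunits moved little: Atp5a1 0.03, Atp5b 0.03, Uqcrc1 0.07, Ndufs1 0.04 and Cox4i1 0.04, all with adjusted p of at least 0.755.

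**Figure D4:**
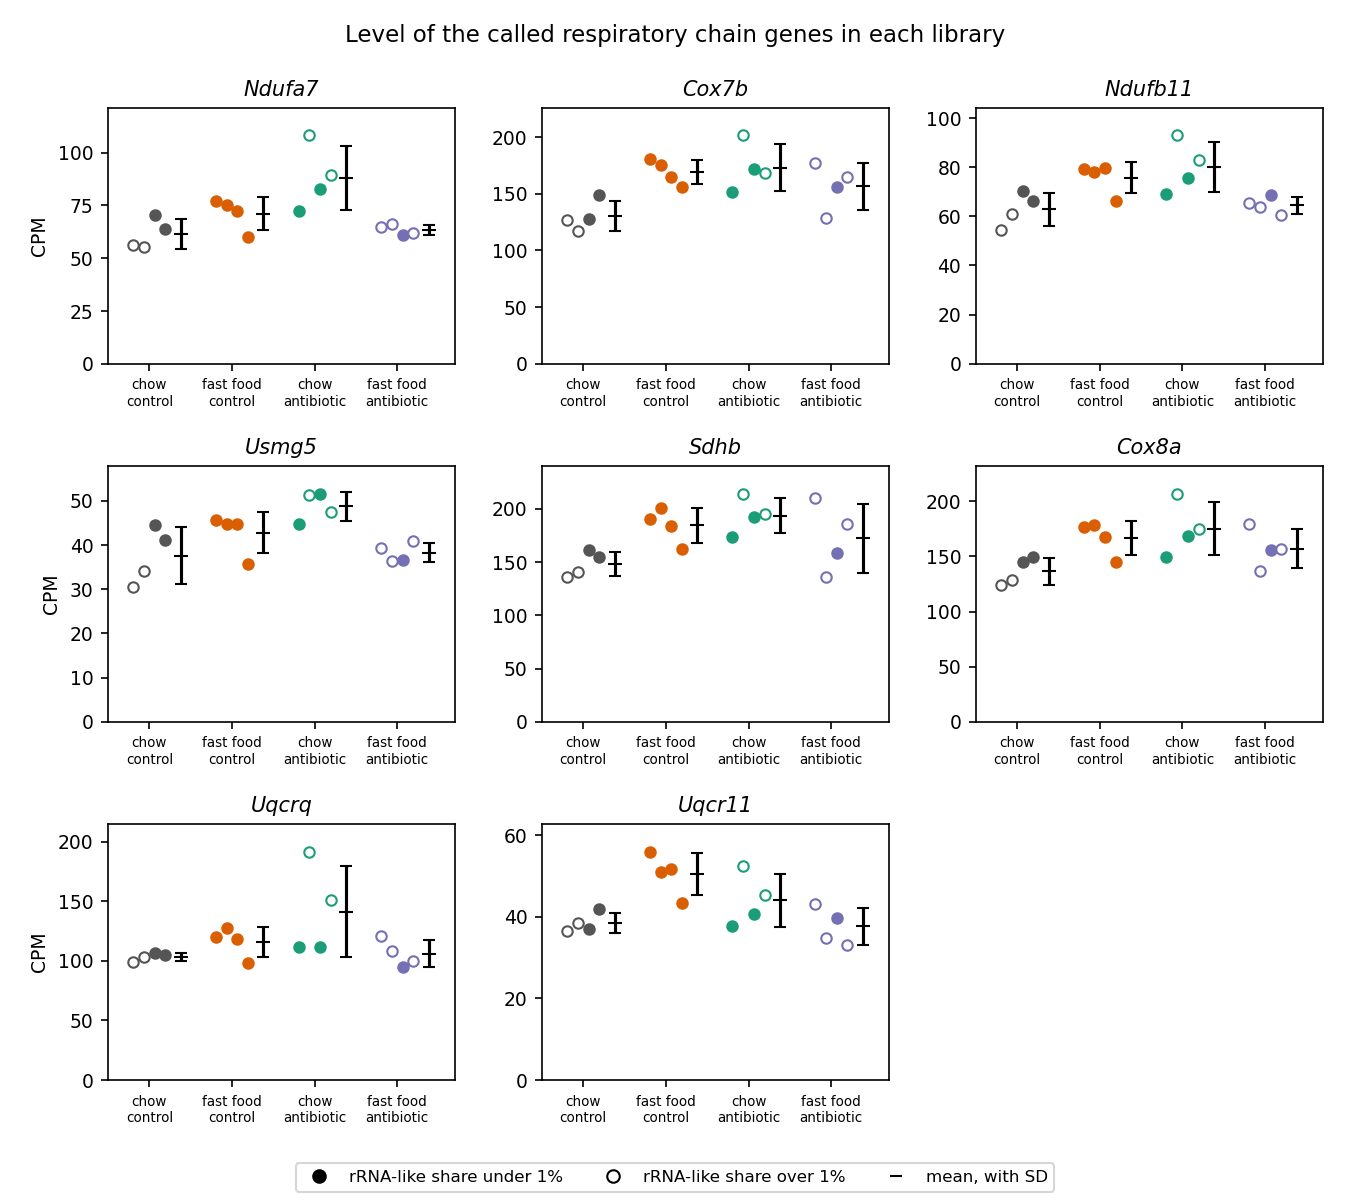
CPM in each library of 8 genes called in a comparison of 2 groups, with the mean and SD of each group beside the points. Open points have an rRNA-like share over 1%. Ndufa7 is higher in the 4 chow antibiotic libraries than in the 4 of chow control and the 4 of fast food antibiotic, and Uqcr11 is higher in the 4 fast food control libraries than in the 4 of chow control.

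These 8 calls depended on libraries and on scaling. Ndufa7 was called with each of the 8 libraries left out in turn, but without chow antibiotic replicate 2 only 2 of the 77 were called (18.8% of all genes were). Without chow control replicate 1 or 2, Ndufb11, Usmg5, Sdhb, Cox8a and Uqcrq were not called. Cox8a and Uqcrq were also lost without chow control replicate 3, Uqcrq without chow antibiotic replicate 4 or chow control replicate 4, and Usmg5, Sdhb and Cox8a without chow antibiotic replicate 3. A fit to these 2 groups alone ended the calls of Ndufb11, Usmg5, Cox8a and Uqcrq (adjusted p = 0.0625 to 0.0813). The same 4 calls were lost with the 3 libraries of high acute phase transcripts left out (adjusted p = 0.0543 to 0.0816). Without a filter on low counts Cox8a was lost (adjusted p = 0.0588), and with the rRNA-like share as covariate Uqcrq was (adjusted p = 0.0537). Within the libraries with an rRNA-like share under 1% (2 against 2) the median was -0.10 and 16 of 77 were positive. There Ndufb10, Sdhd, Cyc1 and Atp5k were lower and none was higher. Of all genes 1754 were called lower and 1565 higher, 25.1% in either direction, so 4 of 77 is below the background. The 4 genes were singled out after their values were seen. Within those over 1% (2 against 2) the median was 0.32 and 75 were positive, with 0 called where 3 genes in all were; by an unadjusted p, 2313 genes were under 0.05. The direction of the list as a whole was thus opposite on the 2 sides. Ndufa7 kept its direction on both, at 0.20 ± 0.14 (adjusted p = 0.325) and 0.84 ± 0.16 (adjusted p = 0.0921).

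The scaling of the libraries set the sign of the median. Abundant hepatocyte transcripts took more of the counts in chow antibiotic. Alb, Apoa1, Cps1 and Serpina1a, 4 of the 6 hepatocyte markers, were called higher there (3 of them, all but Serpina1a, with library size alone), and the markers summed to 153000 to 212400 CPM against 94990 to 129000 CPM in chow control. Their part in the result was not tested. As a plain share of all counts, the 77 genes took 0.888% ± 0.0801 in chow antibiotic and 0.997% ± 0.122 in chow control (SD, n = 4). With library size alone in place of TMM factors, an alternative chosen after seeing the data, the median of the 77 was -0.16 and that of all genes -0.25, and 12 of the 77 were positive. Ndufa7 was then at 0.25 ± 0.12 (adjusted p = 0.130), 1 of the 77 was called higher, and Ndufb10, Ndufs3 and Sdhd were called lower. Of all genes 566 were called higher and 3360 lower, 29.8% in either direction, so these calls are below the background. Under both scalings the median of the 77 lay above that of all genes.

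With antibiotic water, 2 respiratory chain genes were lower after fast food than after chow, and both were among those above. Ndufa7 stood at 65.0, 66.2, 61.2 and 62.1 CPM in fast food antibiotic, below all 4 chow antibiotic libraries and within the range of the control-water groups. It differed by -0.47 ± 0.12 (adjusted p = 0.0203). Of all genes 5.87% were called lower, 7.78% higher and 13.7% in either direction, so 2 of 77 is below the background. At an unadjusted p under 0.05 there were 9 of the 77 (30.4% of all genes). The 77 had a median of -0.07 (all genes 0.03) and 24 were positive (53.3% of all genes). Groups did not overlap, with fast food lower, for 8 genes (6.71% of all genes), 6 of them in complex I, and with fast food higher for 0 (7.78% of all genes). Both calls were lost without fast food antibiotic replicate 4 or chow antibiotic replicate 2, and that of Ndufa7 also without fast food antibiotic replicate 3.

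Neither was called in a fit to these 2 groups alone (adjusted p = 0.0734 for Ndufa7) or with library size alone, where the median was 0.16 and 64 were positive (all genes 0.24). Library size alone called 2 other genes of the list, Ndufb10 and Ndufs3, in the opposite direction, higher after fast food. Of all genes 2331 were then called higher and 271 lower, 19.7% in either direction. Within the libraries over 1% rRNA-like share (2 chow, 3 fast food), the median was -0.19, and Ndufa7 differed by -0.64 (adjusted p = 0.167). The other side held 1 fast food antibiotic library and was not tested.

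With fast food, antibiotic water went with a lower level of 1 gene, Uqcr11. It stood at 43.2, 34.9, 39.7 and 33.2 CPM in fast food antibiotic, below the 4 fast food control libraries given above, the closest values being 43.2 and 43.4 CPM. It fell by 0.42 ± 0.12 on the log2 scale (adjusted p = 0.0466), where 2.22% of all genes were called lower, 3.77% higher and 5.99% in either direction. At an unadjusted p under 0.05 there were 13 of the 77 (26% of all genes). Of the 77 fold changes 70 were negative and 7 positive (52.2% of all genes positive), with a median of -0.18 (all genes 0.02). The 7 with positive values were Atp5d, Ndufs5, Atp5g1, Ndufa4l2, Atp5l, Ndufb4 and Atp5g2. Groups did not overlap for 7 genes lower (8.38% of all genes), namely Uqcr11, Ndufa4, Ndufv3, Ndufa9, Uqcrc2, Ndufa2 and Ndufb6, and for Atp5l higher (9.98% of all genes).

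The call of Uqcr11 was held without fast food control replicate 4 or fast food antibiotic replicate 1 and lost without any of the other 6 libraries. None of the fast food control libraries had an rRNA-like share over 1% and 1 fast food antibiotic library was under it, so that the share and the water largely cannot be told apart here. With the share as a covariate, Uqcr11 differed by -0.45 ± 0.15 (adjusted p = 0.310), and edgeR called 0 genes in all, with 1578 at an unadjusted p under 0.05; the median of the 77 was -0.15. With a term for the split at 1% its adjusted p was 0.238. The call was also lost without a filter on low counts (adjusted p = 0.0557) and in a fit to these 2 groups alone (0.0519). In that fit Ndufv3 was the 1 gene of the list called, where 7.62% of all genes were. With the 3 libraries of high acute phase transcripts left out, fast food antibiotic replicate 2 among them, the median was -0.10, 13 were positive and Uqcr11 was not called (adjusted p = 0.0664).

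The interaction of meal and water asks whether the fast food effect differed between the waters. It was called for 4 genes, all negative, among them Ndufa7 (-0.68 ± 0.17, adjusted p = 0.0384), Ndufb11 (-0.58 ± 0.15, 0.0440) and Uqcr11 (-0.61 ± 0.17, 0.0496). Of all genes 1.58% were called negative, 2.36% positive and 3.94% in either direction. At an unadjusted p under 0.05 there were 21 of the 77 (21.1% of all genes). Ndufa2 had the fifth lowest p, at -0.71 ± 0.20 (adjusted p = 0.0554). With control water the fast food difference was 0.21 for Ndufa7, 0.27 for Ndufb11 and 0.39 for Uqcr11. With antibiotic water it was -0.47, -0.31 and -0.22 in the same order, so the sign of the estimate differed between the waters for each. None of these differences was called with control water, and with antibiotic water only that of Ndufa7 was. The interaction was negative for 68 of 77 genes (55.0% of all genes were positive), with medians of -0.27 (complex I), -0.24 (II), -0.37 (III), -0.36 (IV) and -0.21 (ATP synthase) and of -0.26 over all 77 (all genes 0.06).

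**Figure D5:**
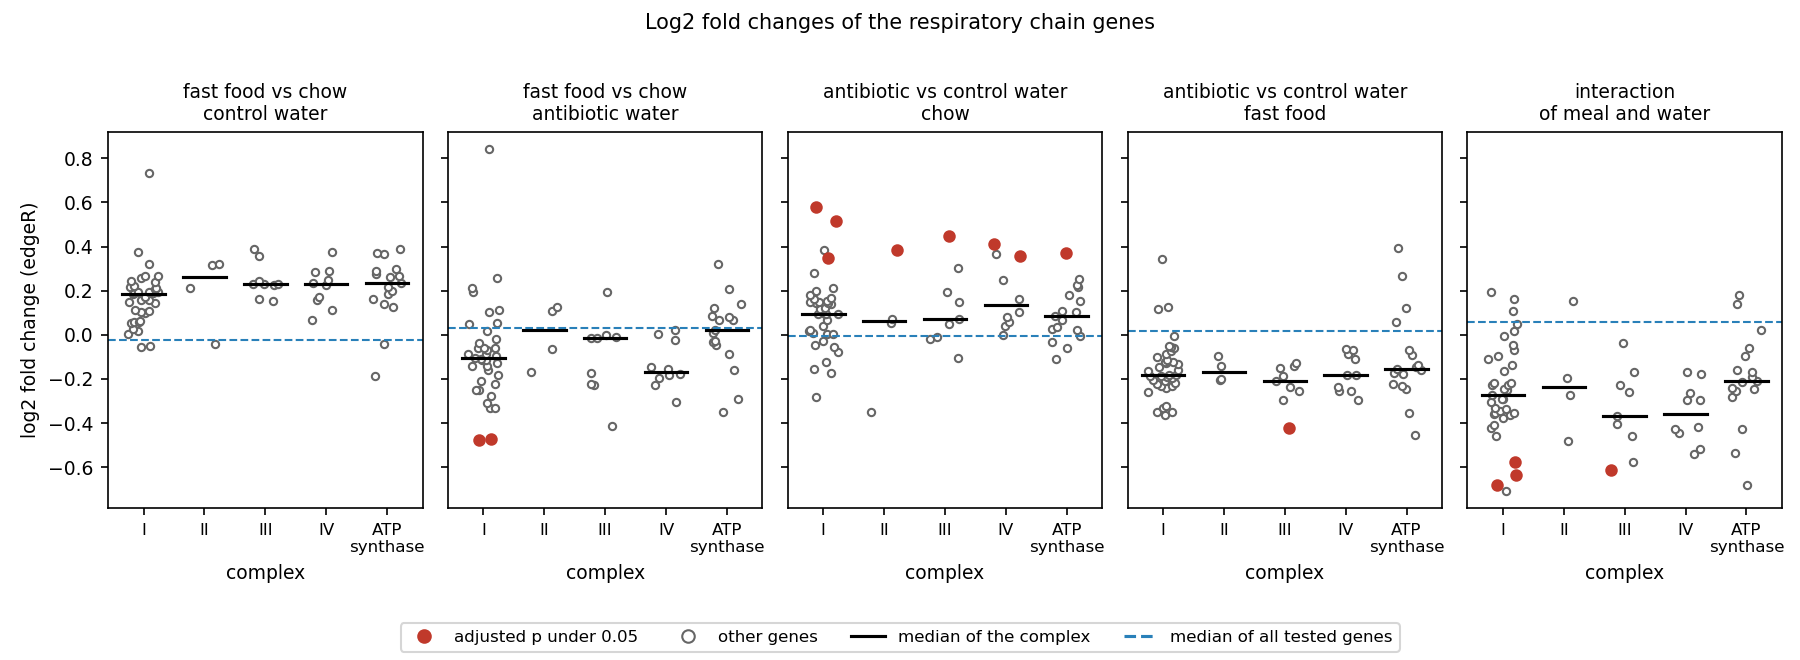
Log2 fold changes of the 77 genes by complex in the 4 comparisons of 2 groups and in the interaction (edgeR). Red points have an adjusted p under 0.05, black lines are medians of a complex and the dashed blue line is the median of all tested genes. With control water the medians lie at 0.19 to 0.26, and in the interaction at -0.37 to -0.21.

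Each of the 4 genes was called in 6 of 16 fits that left out 1 library. All 4 calls were lost without chow control replicate 1 or 2, fast food control replicate 1, 2 or 3, chow antibiotic replicate 2 or 3, or fast food antibiotic replicate 3 or 4. That of Uqcr11 was also lost without chow control replicate 3, and those of the other 3 without fast food antibiotic replicate 1. None was called with the rRNA-like share in the model or with library size alone. Without a filter on low counts 1 of the 4 was called, and Ndufb11 (adjusted p = 0.0628) and Uqcr11 (0.0634) were not. With library size alone, the median of the 77 was -0.040 and that of all genes 0.26, so that the distance between them was similar. Comparisons that share a group are not independent: the chow antibiotic libraries enter the 2 comparisons and the interaction in which Ndufa7 was called.

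Genes that regulate, assemble and feed the chain were called in both directions between chow antibiotic and chow control. Among 15 regulators, Ppargc1a, the coactivator of mitochondrial biogenesis, rose by 1.45 ± 0.37 on the log2 scale (adjusted p = 0.0117) and the deacetylase Sirt1 by 0.56 (0.0386). Tfam, which packages and transcribes mitochondrial DNA, fell by 0.54 (adjusted p = 0.00335). Of all genes 10.6% were called higher and 13.2% lower there, and the counts below are to be read against these shares. Of 50 tested assembly factors, 2 were higher and 10 lower. The lower ones included Cox15, an enzyme of heme A synthesis, at -0.76 (adjusted p = 8.27e-04), and Taco1, a translational activator of a mitochondrially encoded complex IV subunit, at -0.73 (0.00101). Of 19 electron carrier and ubiquinone genes, 3 were higher and 4 lower. Gpd2, which passes electrons from glycerol 3-phosphate to ubiquinone, fell by 1.17 (adjusted p = 2.31e-04), and Coq10a, a ubiquinone-binding protein, rose by 1.01 (0.00130). Of 14 citric acid cycle genes 3 were lower (Cs, Idh2 and Suclg1; 5 with library size alone), and Atpif1, the inhibitor of the ATP synthase, fell by 0.64 (adjusted p = 0.0151). Cox7a2l, a factor of respiratory supercomplexes, rose by 0.43 (adjusted p = 0.00737). With library size alone the calls of Sirt1, Cox7a2l and both higher assembly factors, Coa6 and Fmc1, were lost, and 19 assembly factors were lower in place of 10. Of all genes, 566 were then called higher and 3360 lower, 29.8% in either direction. The counts given for library size alone are to be read against these.

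After fast food with antibiotic water, Taco1 (0.72, adjusted p = 0.00428), Cox15 (0.53, 0.0172) and Coq3 (0.72, 0.0282) were higher than after chow, and Coq10a (-0.97, 0.00554) and Cox7a2l (-0.52, 0.00687) lower. The interaction was positive for Taco1 (0.86, adjusted p = 0.0189), Cox15 (0.70, 0.0423) and Gpd2 (0.94, 0.0372) and negative for Coq10a (-1.22, 0.0209), Cox7a2l (-0.64, 0.0263) and Fmc1, an assembly factor of the ATP synthase (-0.84, 0.0478). With fast food, antibiotic water went with higher Nrf1, the factor of the motif above (0.46, adjusted p = 0.0479), and lower Sco1, a copper chaperone for complex IV (-0.54, 0.0398), and Cs, citrate synthase (-0.46, 0.0458), and library size alone ended these 3 calls (adjusted p = 0.0705, 0.0747 and 0.0687). They were also lost with the rRNA-like share as covariate or the split at 1% as a term, where 0 genes in all were called (by edgeR, 1578 and 1677 at an unadjusted p under 0.05). Library size alone also ended the calls of Cox7a2l in the other comparisons and of Fmc1. None of these lists had a gene called in the meal comparison with control water.

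Other families for proteins made in quantity give the scale of these counts. Of 78 tested cytosolic ribosomal protein genes, 27 were higher in chow antibiotic than in chow control (median 0.35) and 36 were lower in fast food antibiotic than in chow antibiotic (median -0.45), against 8 and 2 of the 77 respiratory chain genes. Of all genes 10.6% were called higher in the first comparison and 5.87% lower in the second. With library size alone these became 3 higher with 3 lower, and 11 lower. Of all genes, library size alone called 566 higher and 3360 lower in the first comparison and 271 lower in the second. Of 78 mitochondrial ribosomal protein genes, 14 were lower in chow antibiotic than in chow control (median -0.13; 13.2% of all genes were called lower), and 36 with library size alone. The difference between the lists was not tested. Kupffer cell markers were lower with antibiotics, 5 of 6 in chow-fed and 3 of 6 in fast food-fed mice (5 and 0 with library size alone). Of 6 stellate cell markers, 3 were lower in chow antibiotic than in chow control and 3 higher in fast food antibiotic than in chow antibiotic. In the latter comparison 4 of 6 hepatocyte markers were lower (2 with library size alone). The part of these cell types in the results above was not tested. In whole liver, fewer cells of a type and less RNA per cell cannot be told apart.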

How the data were processed

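Poly(A) RNA of 16 mouse liver libraries, 4 in each of 4 groups by their titles, was read as single 50-base reads, per the labels' protocols. The table deposited by the authors holds raw read counts by gene, not normalized. Per the submitters' processing notes, the tools included STAR and HTSeq, with cutadapt and FastQC, and the build was GRCm38.p6. Neither the strand setting nor the treatment of multiply matching reads is stated there. Depth was 8954378 to 18954655 counts per library. All that follows was computed from these counts.

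Genes passing edgeR's filterByExpr (minimum count 10; 13180 genes) were scaled with TMM factors and fitted with a quasi-likelihood model (edgeR 4.0.16, R 4.3.3; 4 group means, 16 libraries, common biological coefficient of variation 0.222). Tests were two-sided and adjusted by Benjamini-Hochberg over all genes, with a threshold of 0.05. Standard errors are absolute log2 fold changes over the root of F. Log2 CPM used a prior count of 2. Symbols, lengths, overlaps and coordinates (1-based) came from GENCODE M21 (GRCm38), and promoters from RefSeq (GRCm38.p6). The method was tested on simulated data. In every group, each pair of libraries differed by more than sampling noise.

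The members and lists were chosen with earlier results of these data known. Any member may be named: up to 8 called members per direction and comparison, a panel of core subunits, the 5 of lowest p for the interaction, the highest and lowest per complex, and up to 4 called genes per pathway list. Alternatives were DESeq2 1.42.0, RLE factors, other filters, 2-group fits, the replicate number as a block, leaving out libraries, and terms or splits for the rRNA-like share. Library size without TMM factors, fits within each side of that split and transcript length were added after seeing the data. Of the list, 1 gene is not reported here by itself and counts only in the totals. Comparing the c subunit isoforms by protein was not done here.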

Additional observations from a re-analysis of the deposited data

Results flagged for a closer look

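Among the values by group of 4 libraries, 6 stood apart, with a gap to the nearest library of over 0.829 of the range of the group. Cox5a was at 83.3 CPM in chow control replicate 1, the other libraries of the group lying between 99.6 and 100.7. In fast food control replicate 4, Ndufs1 was at 146.7 CPM (the others 167.8 to 171.7), Usmg5 at 35.8 CPM (44.8 to 45.8) and Ndufb11 at 66.4 CPM (77.9 to 79.6). Sdha was at 428.5 CPM in chow antibiotic replicate 2 (378.7 to 387.0), and Cox7a2 at 87.5 CPM in fast food antibiotic replicate 2 (122.7 to 124.1). These were 6 of 152 groups looked at, and chance alone flags about 1 in 20. The genes move together within a library, so that the 152 are not independent.

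The effect of the meal differed between the waters for these 3 genes by the interaction term of edgeR, on the log2 scale. The interaction was -0.68 for Ndufa7 (adjusted p = 0.0384), -0.58 for Ndufb11 (0.0440) and -0.61 for Uqcr11 (0.0496). Both Ndufb11 and Usmg5 have their lowest fast food control value in replicate 4, which also had the lowest score over the 77 genes in that group (-0.06).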

How the results depend on the processing

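Leaving out each library in turn, the number of respiratory chain genes called stayed at 0 for the meal with control water and ran from 0 to 4 for the meal with antibiotic water, 2 to 10 for the water after chow, 0 to 1 for the water after fast food and 0 to 5 for the interaction. In the same order, the median log2 fold change of the 77 genes ran from 0.16 to 0.27, -0.15 to -0.02, 0.03 to 0.18, -0.24 to -0.09 and -0.35 to -0.19. The number of all genes called (76, 1800, 3138, 790 and 519 over all libraries) ran from 11 to 42, 697 to 3042, 2301 to 3204, 78 to 933 and 164 to 1494. The lowest of these came, in the same order, without fast food control replicate 2, fast food antibiotic replicate 4, chow control replicate 3, fast food control replicate 3 and fast food antibiotic replicate 4.

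DESeq2 called 305 genes for the meal with control water and 2411 (18.3% of all genes) with 6 of the 77 for the meal with antibiotic water. It called 1547 genes with 3 of the 77 for the water after fast food, and 1120 with 9 for the interaction. Fits to the groups compared called 365 genes for the meal with control water and 229 genes with 0 of the 77 for the meal with antibiotic water. For the water after chow they called 2515 genes (20.2% of all genes) with 4 of the 77. Without a filter on low counts 545 genes with 0 of the 77 were called for the water after fast food and 378 with 1 for the interaction. With the share of rRNA-like reads as covariate, 22 genes were called for the meal with control water, 0 genes and 0 of the 77 for the water after fast food, and 143 genes and 0 of the 77 for the interaction. With a term for the split at 1% these were 17, 0 and 0, and 262 and 0, edgeR leaving 1677 genes at an unadjusted p under 0.05 for the water after fast food. With the 3 libraries of high acute phase transcripts left out, 160 genes were called for the meal with control water and 3206 for the meal with antibiotic water. For the water after chow 3947 genes (29.8% of all genes) with 5 of the 77 were called. The water after fast food then gave 1025 genes with 0 of the 77, and the interaction 1851 genes.

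Within libraries under 1% rRNA-like share 154 genes were called for the meal with control water. For the water after chow 3319 genes with 4 of the 77 were called there, and the median of the 77 was -0.10. Within those over 1%, 1 gene and 0 of the 77 were called for the meal with antibiotic water, and 3 genes and 0 of the 77, with a median of 0.32, for the water after chow. With library size alone 36 genes were called for the meal with control water. For the meal with antibiotic water 2602 genes with 2 of the 77 were called, and the median of the 77 was 0.16. For the water after chow 3926 genes with 4 of the 77 were called, and this median was -0.16. For the water after fast food 386 genes were called, and for the interaction 856 genes and 0 of the 77, with a median of -0.040. The causes were not tested. RLE factors and the stricter filter moved none of these counts by more than 1.5 times.

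Replicate numbers did not pair the samples: of 24 same-numbered pairs 3 had a correlation of deviations over 0.1, and 0 libraries correlated best with their own number in every other group. With the number as a replicate block, 5 of the 77 were called for the water after chow (not Sdhb, Cox8a or Uqcrq), 0 for the water after fast food (Uqcr11 adjusted p = 0.0684) and 0 for the interaction (Ndufa7, Ndufb11 and Uqcr11 adjusted p = 0.0640, 0.0657 and 0.0844). All genes called were then 65, 1547, 2916, 738 and 355.

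The precision is limited by 4 libraries a group and by the split in rRNA-like share, which coincides with depth. Within a side of that split the fits of the water after fast food and of the interaction were not run, because a group had fewer than 2 libraries there. Levels per length depend on the gene model: by the longest transcript the highest gene was another in 4 of the 5 complexes (Ndufa4, Uqcrh, Cox4i1 and Atp5b), and Sdhd in complex II both ways.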

Other observations

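Between chow antibiotic and chow control, the log2 fold changes of the 4 genes of complex II ran from -0.35 for Sdhd (adjusted p = 0.0731 by edgeR) to 0.39 for Sdhb (0.0353). The groups did not overlap for either, in opposite directions. Among the genes of the c subunit, with fast food against chow and control water, Atp5g3 was at 0.37, Atp5g1 at 0.30 and Atp5g2 at -0.19, none of them past the threshold (edgeR, adjusted p from 0.431 to 0.867). The exons of 29 of the 77 genes overlap an exon of another annotated gene on either strand. On the opposite strand, the overlap took up 257 of 659 exon bases of Ndufb6 (with Smim27), 702 of 1972 of Atp5o (with a pair of antisense genes) and 375 of 1251 of Ndufa13 (with Tssk6).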
